A study of Caenorhabditis elegans with 2 samples.

Results

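The cuticle collagen genes of Caenorhabditis elegans were examined for binding of LIN-29, apart from 5 whose names begin with col- (col-7, col-17, col-19, col-62 and col-63). The set held all other protein-coding genes with a col- name in the WBcel235 annotation and 13 collagen genes named for a body-shape mutant (dpy-2, dpy-3, dpy-4, dpy-5, dpy-7, dpy-8, dpy-10, dpy-13, sqt-1, sqt-2, sqt-3, rol-8 and lon-3). These were 164 genes of 19973 nuclear protein-coding genes, with 43 on chromosome IV, 33 on V, 29 on X, 28 on II, 19 on I and 12 on III. Chromatin immunoprecipitation with sequencing (ChIP-seq) had been done with an anti-GFP antibody on strain RW12227, whose own lin-29 gene on chromosome II carries a CRISPR insertion, st12227[lin-29::TY1::EGFP::3xFLAG]. Whole L4 larvae were taken at 49 hours after a synchronising L1 starvation, so DNA of all tissues was present and the strain is a single tagged allele. The only group had 2 biological replicates, which share the strain, stage and treatment. No untagged strain, other stage or input was analysed here, so the collagen genes were set beside all protein-coding genes of the same lists.

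Cuticle collagens are short secreted proteins in which a central stretch of Gly-X-Y triplets, each beginning with glycine, folds with others into a triple helix. The epidermis makes a fresh set at each moult. Mutations in single collagen genes make animals short (Dpy), squat or rolling (Sqt), rolling (Rol) or long (Lon). LIN-29 is a zinc finger transcription factor at the end of the heterochronic pathway, which times larval development. In the epidermis it is needed for moulting to end and for the switch to adult-type collagens, col-19 being the usual reporter of that switch.

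The annotated coding sequences bear out the family name. All 164 encode a run of at least 5 Gly-X-Y triplets, the encoded proteins have 154 to 740 residues with a median of 304, and the Gly-X-Y stretch makes up a median of 49.8% of the protein. One gene, col-99, is known to encode a transmembrane rather than a cuticle collagen and was kept because of its name. The genes are short, with a median of 1224.5 bp from 5′ to 3′ end against 2027 bp for all protein-coding genes. Their G and C content is high, at a median of 49.2% over the gene body against 36.4%.

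A peak was given to a gene when its summit lay between 2000 bp upstream of the 5′ end and the 3′ end. Each of the 4 ranked lists holds many weak candidate peaks, and the thresholded list tied to it keeps the candidates with an irreproducible discovery rate (IDR) of 0.01 or less. The IDR estimates how likely a peak is not to repeat in rank between the inputs compared, so a low value marks a repeatable peak. The pooled thresholded list had 856 merged sites, a second series-wide list called conservative had 802, and the replicates' own lists had 528 and 381. The ranked lists gave 54915 merged candidates for the pooled replicates, 41736 for replicate 1 and 43151 for replicate 2. Signal is a value that the authors' caller gave each peak, on a scale not stated, so it is compared within a list only. Read counts were not in the lists, so depth is unknown.

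The sequence around each member summit shows 3 kinds of site, and 9 genes carried them (101 bases centred on the summit, ce11, from the RefSeq genome of WBcel235). In the first kind the summit lay in or beside a gene for a small RNA, shown in capitals and read on that RNA gene's strand. For col-85 this is the tRNA gene T21B4.t1 inside an intron (chrII:12494729-12494829, plus strand). For col-185 it is the tRNA gene H06A10.t1 upstream of the collagen gene (chrX:13511942-13512042, minus strand). For col-94 it is the start of the snRNA gene R07E5.16 (chrIII:10989619-10989719, plus strand).
col-85: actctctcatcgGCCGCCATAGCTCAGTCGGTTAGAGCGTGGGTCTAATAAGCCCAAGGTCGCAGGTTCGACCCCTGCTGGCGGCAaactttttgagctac
col-185: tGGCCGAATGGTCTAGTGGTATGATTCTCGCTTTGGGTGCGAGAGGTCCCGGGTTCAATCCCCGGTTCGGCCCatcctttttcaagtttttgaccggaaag
col-94: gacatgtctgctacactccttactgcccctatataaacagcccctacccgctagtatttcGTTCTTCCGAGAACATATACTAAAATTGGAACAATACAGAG

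In the second kind the summit lay in the collagen coding sequence. These are shown on the gene's own strand with glycine codons in capitals, so that the spacing of the capitals follows the Gly-X-Y repeat. The windows are chrIV:12427767-12427867 (minus strand) for col-130, chrV:5836320-5836420 (minus) for col-140, chrIV:11226055-11226155 (plus) for col-125 and chrV:12353742-12353842 (plus) for sqt-3. The summits of col-130, col-125 and sqt-3 lay within a Gly-X-Y stretch, and that of col-140 lay in a break between stretches. A capital pair or single base at the left edge is the end of a glycine codon that the window divides.
col-130: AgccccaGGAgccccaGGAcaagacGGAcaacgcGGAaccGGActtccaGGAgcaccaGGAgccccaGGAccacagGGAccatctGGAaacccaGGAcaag
col-140: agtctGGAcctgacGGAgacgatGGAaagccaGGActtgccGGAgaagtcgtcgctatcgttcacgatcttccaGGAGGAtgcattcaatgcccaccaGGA
col-125: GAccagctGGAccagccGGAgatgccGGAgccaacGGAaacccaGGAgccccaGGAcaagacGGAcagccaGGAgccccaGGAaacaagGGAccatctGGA
sqt-3: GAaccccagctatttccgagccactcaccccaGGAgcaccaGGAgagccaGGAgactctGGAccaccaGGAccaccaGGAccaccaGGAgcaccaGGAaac

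The third kind is noncoding sequence with no small RNA gene within 500 bp: an intron of col-72 (chrII:3523749-3523849, minus strand) and the upstream region of col-20 (chrII:4871728-4871828, minus strand). Capitals here mark matches to GCGCGC and to TCTCTC, the reverse complement of GAGAGA.
col-72: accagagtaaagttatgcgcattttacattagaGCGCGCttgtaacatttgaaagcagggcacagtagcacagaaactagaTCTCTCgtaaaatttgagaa
col-20: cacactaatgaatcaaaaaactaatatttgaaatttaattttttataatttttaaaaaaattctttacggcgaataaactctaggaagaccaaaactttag

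Of the 164 collagen genes, 7 had a site in the pooled list (4.27%, 95% Wilson interval 2.08 to 8.55%), and the share over all protein-coding genes was 4.61%. By this assignment the share of collagen genes with a site was therefore near that of genes in general. The conservative list also gave 7 collagen genes, against 4.39% of all genes. Replicate 1's own list gave 3 (1.83%), against 2.94% of all genes, and replicate 2's gave 5 (3.05%), against 2.22%. The genes col-72, col-85 and col-94 had a site in all 4 lists, and 5 had one in both the pooled and the conservative list. The intervals here and below cover counting error only.

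The strongest site was at col-94, with a signal of 158.9 in the pooled replicates, 71.4 in replicate 1 and 91.9 in replicate 2. Its summit (chromosome III, peak 10989604 to 10989675) lay 1796 bp upstream of col-94, within an intron of dhc-4, a dynein heavy chain gene, and 10 bp from R07E5.16. It had rank 114 of the 856 sites by signal, rank 179 of 528 in replicate 1 and rank 62 of 381 in replicate 2. The conservative list held a second, weak site 1997 bp upstream (signal 25.7). The site of col-85 (chromosome II, 12494634 to 12494923) had signals of 109.3 pooled, 61.8 in replicate 1 and 49.0 in replicate 2, and its summit lay 316 bp inside the gene, within the tRNA gene (rank 232 in the pooled list). The site of col-185 (chromosome X, 13511847 to 13512136) had 89.1 pooled, 37.8 in replicate 1 and 51.8 in replicate 2. It lay 895 bp upstream, within a tRNA gene, and was in replicate 2's list and not in replicate 1's, where its candidate had an IDR of 0.0577.

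The strongest site away from small RNA genes was in an intron of col-72 (chromosome II, 3523654 to 3523943), 398 bp inside the gene. Its pooled signal was 105.7, above the pooled list's median of 79.9. In the replicates' own lists it was just under the median, with 57.51 against 57.54 in replicate 1 and 51.9 against 53.9 in replicate 2. The 4 sites at col-94, col-85, col-72 and col-185 were the members at or above the pooled list's median. Of these, only col-94 was also above the median of both replicates' own lists. A second peak over col-72 lay 2649 bp inside the gene, in the tRNA gene W09G10.t1. It was in replicate 1's list (signal 45.7) but had an IDR of 0.0119 in the pooled ranked list and no candidate in replicate 2.

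The other 3 pooled sites were near the bottom of the list by signal, with ranks 763, 812 and 845 of 856, and none was in both replicates' own lists. The site at col-130 (chromosome IV, 12427672 to 12427961) had 59.3 pooled, 34.0 in replicate 1 and 27.9 in replicate 2, and was in neither replicate's own list. It lay in the coding exon, 699 bp from the 5′ end, and col-130 itself lies inside the longer gene ugt-65, which encodes a predicted UDP-glucuronosyltransferase. The site at col-20 (chromosome II, 4871633 to 4871922), 987 bp upstream in sequence with 21.8% G and C, had 55.7 pooled and 41.4 in replicate 2, with no candidate in replicate 1. The site at col-140 (chromosome V, 5836225 to 5836723), 464 bp inside the gene in its coding exon, had 46.6 pooled and 33.6 in replicate 1, with no candidate in replicate 2. Neither col-20 nor col-140 was in the conservative list. That list held col-125 (signal 50.4 pooled, 32.3 in replicate 1 and 26.2 in replicate 2) and sqt-3 (49.5 pooled, 28.8 in replicate 1 and 29.6 in replicate 2) in their place, both in coding exons, at 599 and 1047 bp.

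**Figure D1:**
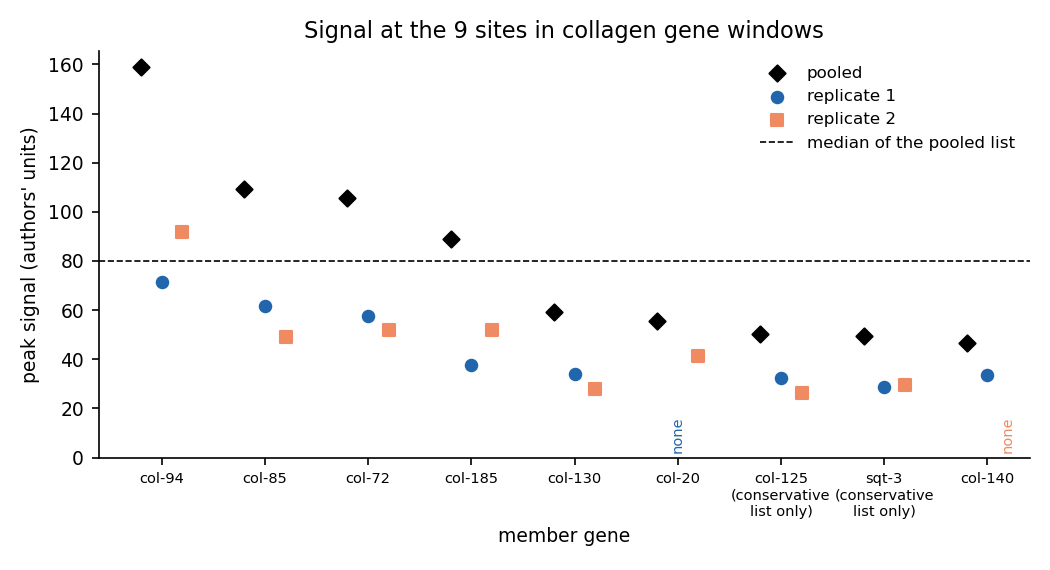
Peak signal in the authors' units (vertical axis) at the 9 collagen genes with a site in the pooled or conservative list (horizontal axis), for the pooled replicates (black diamonds), replicate 1 (blue circles) and replicate 2 (orange squares). The dashed line is the pooled list's median of 79.9 and applies to the pooled values only. Those of col-94, col-85, col-72 and col-185 lie above it. Signals of different lists are not on a known common scale. The gene col-20 lacks a candidate in replicate 1, and col-140 lacks one in replicate 2.

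No collagen gene had a pooled site between 500 bp upstream and 200 bp downstream of its 5′ end, where 1.93% of all genes had one. A count of 0 of 164 allows a share of up to 1.83% by a floor of 3 counts and up to 2.29% by the Wilson interval, and the share over all genes lies between these limits, so a difference was not clearly detectable. Of the 7 sites, 3 were upstream and 4 within the gene. In the pooled ranked list at an IDR of 0.01, 3 collagen genes had a candidate upstream (1.83%), against 3.29% of all genes. In the gene body 4 did (2.44%), against 1.45%. Also, 3 of the 7 sites lay within 500 bp of a tRNA, snRNA or snoRNA gene, as did 194 of all 856 sites (22.7%). Without such sites 4 collagen genes remained (2.44%), against 3.71% of all genes. The part that nearby small RNA genes play in the signal was not tested.

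Matches to 4 hexamers (runs of 6 bases) that recur over the pooled sites were counted on both strands within 50 bp of the summit. GAGAGA was present at 2 of 7 collagen sites (col-85 and col-72) against 22.0% of all sites, and GCGCGC at 1 (col-72) against 9.23%. Neither ACGCAG (17.2% of all sites) nor ACGCGC (12.5%) was within 50 bp of any of the 7. Over the 451 distinct candidates in collagen gene windows the share was 2.44% for ACGCAG, against 3.18% of all 54915 candidates. It was 5.76% for GAGAGA, against 7.14% of all candidates, 1.77% for ACGCGC, against 2.22%, and 0.443% for GCGCGC, against 1.33%. GCGCGC and ACGCGC can overlap each other in a longer run, and a match is a run of letters and not a binding site.

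Below the threshold the collagen genes stood above genes in general, and they did so inside the gene. At an IDR of 0.05, 22 of 164 had a candidate (13.4%, Wilson interval 9.03 to 19.5%), against 7.56% of all genes. Leaving aside the genes with a pooled site, 15 collagen genes had one (9.15%), against 2.95% of all genes. In the gene body 15 had a candidate at this IDR (9.15%, 5.62 to 14.5%), against 2.93% of all genes. In the 2000 bp upstream 7 did (4.27%, 2.08 to 8.55%), against 5.03%. At an IDR of 0.2 the counts were 54 genes (32.9%) against 15.0% of all genes in the whole window, 45 (27.4%) against 7.65% in the gene body, and 15 (9.15%) against 8.74% upstream. Per length of sequence, candidates at IDR 0.05 numbered 0.0651 per kb of collagen gene body against 0.0109 per kb over all genes, and 0.0244 against 0.0268 per kb upstream.

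In the replicates' own ranked lists the gene-body share was above that of all genes at an IDR of 0.2 in each, but mostly through different collagen genes. Replicate 1 had 18 collagen genes with a gene-body candidate at 0.2 (11.0%), against 3.73% of all genes, and replicate 2 had 17 (10.4%), against 2.64%. Only 4 genes were in both, col-50, col-72, col-85 and col-97, which are 22.2% of replicate 1's and 23.5% of replicate 2's. Over all genes 225 were in both, which are 30.2% of replicate 1's 744 and 42.7% of replicate 2's 527. At 0.05 replicate 1 had 3 (1.83%), against 1.56%, and replicate 2 had 7 (4.27%), against 1.13%. Over the whole window at 0.05, replicate 1 had 4 collagen genes (2.44%), against 4.63% of all genes, and replicate 2 had 10 (6.10%), against 3.36%. These lists shared 3 collagen genes, col-72, col-85 and col-94, while col-140 was in replicate 1's alone and 7 were in replicate 2's alone. The shared genes are 75% of replicate 1's collagen genes and 30% of replicate 2's. Over all genes 470 were shared, which are 50.8% of replicate 1's 925 and 70.0% of replicate 2's 671. At the 216 distinct collagen candidates with a candidate in both replicates, replicate signals ranked weakly together (Spearman rho 0.242 across sites, which share the libraries' depth and background).

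**Figure D2:**
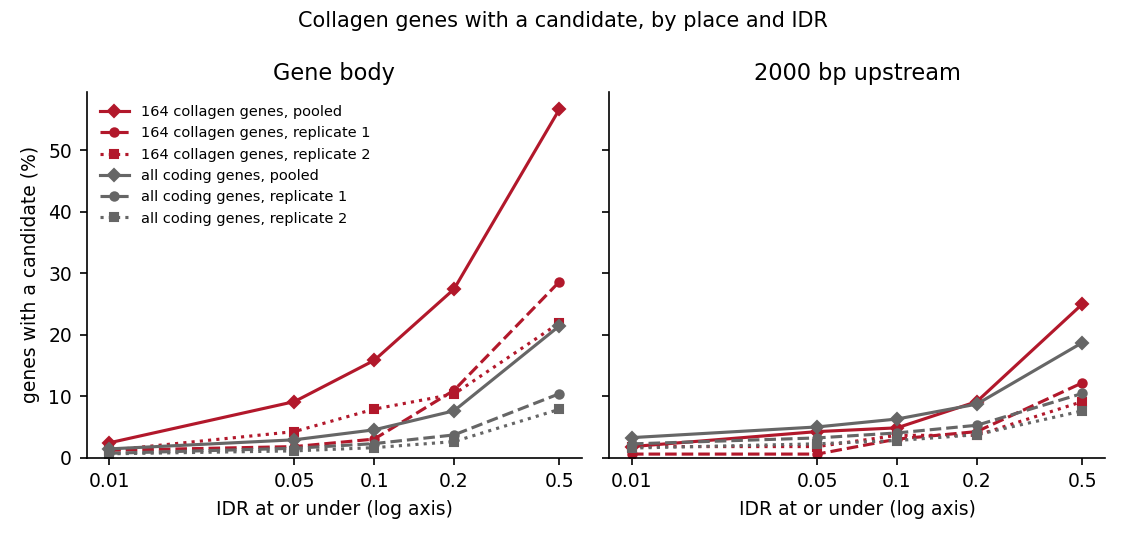
Share of genes with a candidate at or under each IDR (log axis), in the gene body (left panel) and the 2000 bp upstream (right panel), for the 164 collagen genes (red) and all protein-coding genes (grey), in the pooled and the replicates' ranked lists. In the gene body 27.4% of collagen genes reached 0.2 in the pooled list against 7.65% of all genes, and upstream 9.15% did against 8.74%.

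Of the genes with no site in any list, the lowest IDR was that of col-163 (0.0109, signal 59.8 pooled, 29.5 in replicate 1 and 26.1 in replicate 2), at a coding summit 742 bp inside the gene. The gene col-175 followed (0.0174) with a summit 16 bp upstream of its 5′ end and signals of 52.9 pooled, 22.0 in replicate 1 and 32.5 in replicate 2. Among the 24 pairs of a collagen gene and a candidate at IDR 0.05, this summit was the nearest to a 5′ end. Further members had their summit inside the gene, at 544 bp for col-73 (IDR 0.0185), 2256 bp for col-186 (0.0271), 819 bp for col-149 (0.0275), 470 bp for col-8 (0.0275), 555 bp for col-41 (0.0293) and 679 bp for col-161 (0.0350). The summit of col-109 (0.0206) was 315 bp upstream. Some candidates served a pair of neighbours: the one in col-50 lay in the upstream window of col-51 (0.0222), and the one in col-145 in that of col-144 (0.0327). The last inside 0.05 was thus col-161, and the first outside it were col-120 (0.0561), sqt-2 (0.0591) and rol-8 (0.0624). Within a single replicate these candidates had higher IDRs. In replicate 1 it was 0.147 for col-163 and 0.583 for col-175, and in replicate 2 it was 0.694 for col-163 and 0.0964 for col-175.

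High signal did not always come with a low IDR. The candidate of col-77, 583 bp inside the gene, had a signal of 61.0 and an IDR of 0.0814, and that of col-105, 1028 bp inside, had 59.8 and an IDR of 0.771 with no candidate in replicate 1. A candidate shared by col-9 and col-44 had 50.8 and an IDR of 0.195, and the strongest of col-96 had 50.1, the lowest IDR of that gene being 0.493. The transmembrane collagen gene col-99 had the most candidates, 13 over its 9946 bp, with a lowest IDR of 0.517. It was followed by col-87 with 8 and by col-46, col-109 and col-174 with 6 each.

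Nearly every collagen gene had some weak candidate. In all 157 of 164 did (95.7%, Wilson interval 91.5 to 97.9%), against 81.8% of all genes. The 7 without were col-37, col-64, col-75, col-114, col-126, col-137 and col-148. Each gene's strongest candidate had a median signal of 36.7 (quartiles 30.3 and 43.1) over the 157 collagen genes, against 29.9 (23.6 and 37.8) over the 16345 genes with one. In the replicates the medians were 22.0 against 18.3 in replicate 1 and 19.4 against 16.8 in replicate 2. The quartile ranges overlapped in each list.

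Inside the collagen genes most candidates lay in coding exons, which make up most of these genes. There were 478 pairs of a collagen gene and a candidate, of which 208 were upstream, 200 in coding exons, 52 in introns, 10 in the 5′ UTR and 8 in the 3′ UTR. Coding exons held 74.1% of the 270 gene-body pairs and make up 64.9% of collagen gene bodies, against 45.6% of pairs and 38.3% of gene bodies over all genes. Per length, collagen genes had 1.25 candidates per kb of coding sequence, against 0.702 over all genes, and 0.811 per kb of the rest of the gene body, against 0.521. For 98 of the 157 genes the candidate with the lowest IDR was in a coding exon, and for 40 it was upstream. The same split over all genes is not given here, so these 2 counts are a description only. Density was 1.10 candidates per kb of collagen gene body against 0.591 over all gene bodies, and 0.634 against 0.543 per kb upstream. By distance from the 5′ end, candidates at IDR 0.2 were densest between 500 and 750 bp inside collagen genes, with 11.7 per 100 genes against 0.707 over all genes. In the 250 bp upstream, where genes in general had their highest value, 2.29 per 100 genes, collagen genes had 1.83. Of the 200 coding-exon pairs, 114 (57.0%) had the summit within the Gly-X-Y stretch, which makes up 47.8% of the collagen coding sequence, and of the 11 coding-exon pairs at IDR 0.05, 9 did.

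**Figure D3:**
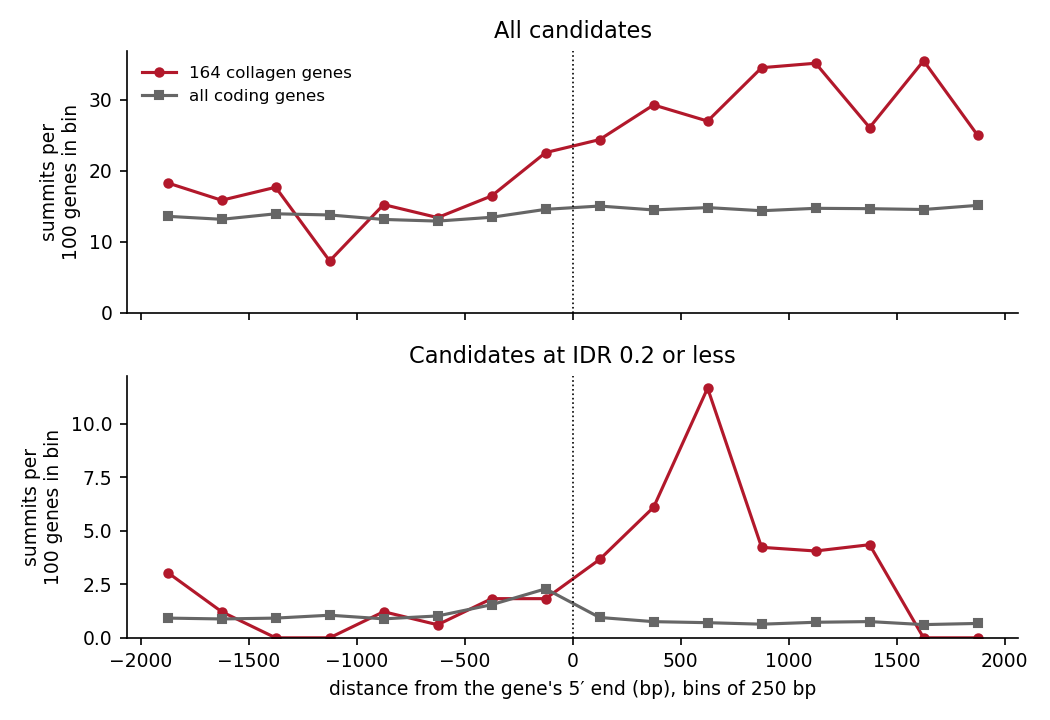
Candidate summits per 100 genes in bins of 250 bp (vertical axis) by distance from the gene's 5′ end (horizontal axis, negative upstream), for the 164 collagen genes (red) and all protein-coding genes (grey); inside the gene, only genes long enough to reach a bin are counted in it. Candidates at IDR 0.2 (lower panel) reach 11.7 per 100 collagen genes between 500 and 750 bp against 0.707 over all genes.

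Base composition at these candidates also differed from that over all genes. Sequence within 50 bp of gene-body summits had a median of 54.5% G and C in collagen genes, against 40.6% over all genes, and 48.3% of the collagen candidates were at 55% or more, against 5.22% of all. Among gene-body candidates at 55% or more, 14 of 129 in collagen genes had an IDR of 0.05 or less (10.9%, Wilson interval 6.58 to 17.4%), against 8.21% (159 of 1936) over all genes. Under 55%, 2 of 138 did in collagen genes (1.45%, 0.398 to 5.13%), against 1.51% (532 of 35127). In both classes the collagen interval held the share over all genes. The class at 55% or more is not matched in composition, its median being 61.4% in collagen genes against 57.4% over all genes. Whether base composition accounts for the higher gene-body share of collagen genes was not tested. Counting only candidates under 55% in the whole window, 7 collagen genes reached IDR 0.05 (4.27%), against 6.0% of all genes. This cut takes out 48.3% of gene-body candidates in collagen genes but 5.22% over all genes. It lowers the collagen count more by its making, so nothing is read from the 2 shares. Sequence at the collagen candidates at IDR 0.05 was largely single-copy, with 61.8% or more of 36-base words occurring once in the genome at each of them.

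**Figure D4:**
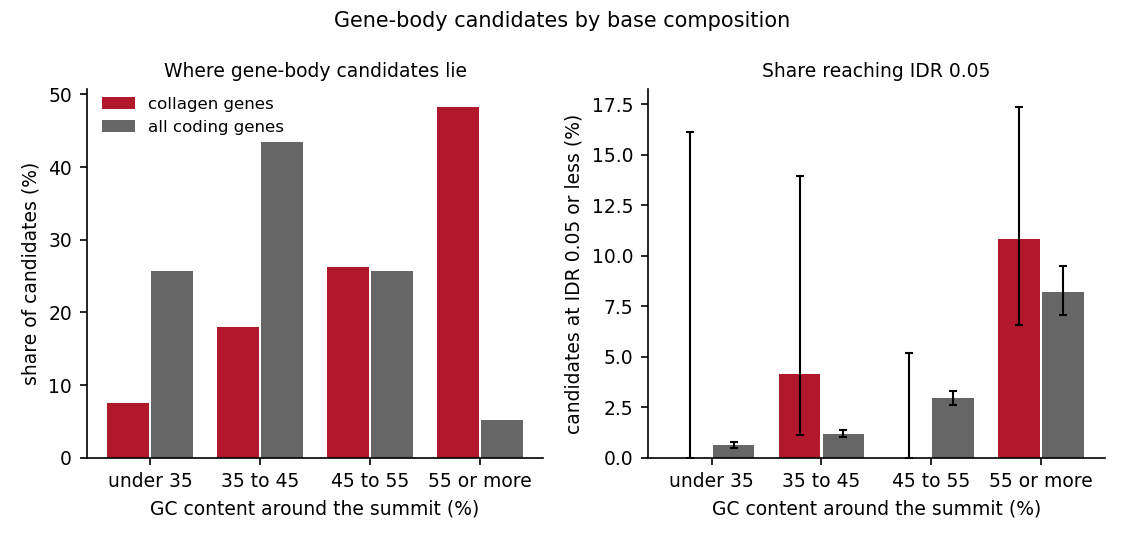
Gene-body candidates by G and C content within 50 bp of the summit, for collagen genes (red) and all protein-coding genes (grey). The left panel gives the share of candidates in each class, 48.3% against 5.22% at 55% or more, and the right panel the share of each class at IDR 0.05 or less with 95% Wilson intervals, 10.9% against 8.21% at 55% or more.

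The 13 collagens named for body shape had no site in the pooled list, where 4.61% of all genes had one. The 5 furrow collagens, dpy-2, dpy-3, dpy-7, dpy-8 and dpy-10, are needed for the annular furrows that ring the cuticle. None of them reached an IDR of 0.05, as 7.56% of all genes did, and 2 reached 0.2, as 15.0% of all genes did. These were dpy-2 and dpy-10, which are transcribed away from each other, 2065 bp apart, and share 1 candidate (IDR 0.133, 198 bp upstream of dpy-2, signal 43.9 pooled, 24.4 in replicate 1 and 18.1 in replicate 2). For the other furrow collagens the lowest IDRs were 0.473 for dpy-3, 0.603 for dpy-7 and 0.876 for dpy-8, whose signal of 21.4 was the lowest of the 13.

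Of the 8 other body-shape collagens, 1 reached 0.05, against 7.56% of all genes, and 5 reached 0.2, against 15.0%. With so few genes these counts are given as a description. The first was sqt-3, mutated in squat and roller animals, whose coding candidate is in the conservative list (pooled IDR 0.0190). Next came sqt-2 (0.0591, an intronic summit 217 bp inside the gene), rol-8 (0.0624, coding, 901 bp), dpy-13 (0.0970, coding, 331 bp) and dpy-5 (0.156, coding, 223 bp). The candidate of dpy-13 had 11.4 in replicate 1, under that ranked list's median of 14.7. In replicate 2 it had 36.4, above that ranked list's median of 13.3. The genes sqt-1 (0.231, 78 bp upstream), lon-3 (0.377) and dpy-4 (0.475) lay outside 0.2. The median strongest signal was 33.8 over the furrow collagens, 42.4 over the other body-shape collagens and 36.4 over the 144 col-numbered genes with a candidate, with overlapping quartile ranges of 26.7 to 43.9, 36.6 to 43.3 and 30.3 to 41.8. At IDR 0.2 the col-numbered genes counted 47 of 151 (31.1%), against 15.0% of all genes.

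**Figure D5:**
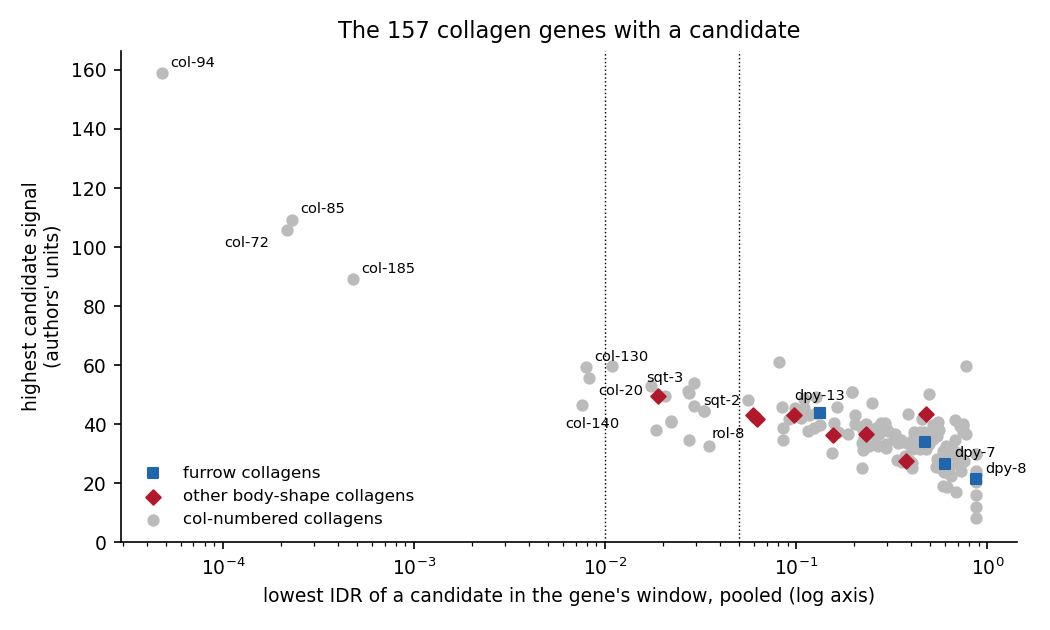
Each of the 157 collagen genes with a candidate, by the lowest IDR in its window (horizontal log axis) and the highest candidate signal (vertical axis, authors' units), which may belong to different candidates. Dotted lines mark IDR 0.01 and 0.05; the 7 genes left of 0.01 are col-numbered, and sqt-3 at 0.0190 is the only body-shape collagen left of 0.05.

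Members near each other shared some of these counts. Of the 164 genes, 42 lay within 2000 bp of another, and 27 of the 451 distinct candidates fell in the windows of more than 1 member. At IDR 0.05 the 24 pairs came from 21 distinct candidates. In 23 of the 24 pairs the nearest 5′ end was that of a collagen gene of the set, and 11 were in the window of no other coding gene. By chromosome, the collagen genes that reached IDR 0.2 were 3 of 19 on I (15.8%, against 17.2% of all genes there), 12 of 28 on II (42.9%, against 14.3%) and 7 of 12 on III (58.3%, against 21.0%). They were 14 of 43 on IV (32.6%, against 14.1%), 11 of 33 on V (33.3%, against 11.0%) and 7 of 29 on X (24.1%, against 16.0%). The share was thus above that of all genes on each chromosome except I.

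Other genes of cuticle and collagen biology had few sites, as genes in general did (4.61%). Of 12 cuticle collagen genes outside the set, 1 had any, bli-6, the strongest 705 bp inside the gene (signal 63.1 pooled, 31.4 in replicate 1 and 34.2 in replicate 2). A further blister gene, bli-2, which like bli-6 gives blistered cuticles when mutated, had a candidate at an IDR of 0.0101. The adult collagen genes col-7, col-17, col-19 and col-63 had no site, with lowest IDRs of 0.450, 0.564, 0.422 and 0.206. The remaining col- gene outside the set, col-62, had no candidate. Among 23 genes for collagen synthesis and cross-linking 1 had a pooled site, pdi-6. This protein disulphide isomerase gene had its summit 3 bp from its 5′ end (92.9 pooled, 62.5 in replicate 1 and 31.2 in replicate 2), and phy-2, a prolyl 4-hydroxylase subunit gene, had a candidate at 0.0226. The gene pdi-2 had a site in the conservative list alone. None of 4 other collagen genes had a site, the basement membrane collagens emb-9 and let-2 reaching 0.0914 and 0.104.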

How the data were processed

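Both samples were whole L4 larvae and formed 1 group of 2 replicates. They gave 8 deposited peak lists on the ce11 build, per the labels. Which aligner and caller made them is not given in the sources used here. A score of at most 1000, deposited by the authors, is higher for a lower IDR, and the thresholded lists keep scores of 830 or more, which from the values stands for an IDR of 0.01. The deposited ranked lists give −log10 of the IDR, from which the IDR was computed. The deposited signal is the authors' peak caller's value, of unstated scaling. Per the file headers of the deposited manifests, a replicate's lists derive from that replicate's alignments, while series-wide lists derive from both. A further 16 columns of per-input values in the series-wide ranked lists were not used.

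Overlapping peaks (1 bp or more) were merged into sites that keep the strongest peak's summit and signal. A merged candidate takes the lowest IDR of its peaks, which need not be that of the strongest peak. Genes came from Ensembl release 115 of WBcel235, with bases read from RefSeq's copy of the assembly. Coordinates are 1-based. Gly-X-Y stretches were read from the annotated coding sequence, translated, as at least 5 triplets in a row. Single-copy shares used 36-base words. The members and lists were chosen with earlier results of these data known. No test over genes was made: counts stand beside the share of all protein-coding genes, and 95% Wilson intervals cover counting error only. The depth behind the lists is unknown. Named were the members with a site in any thresholded list, the 10 further with the lowest IDR and the 5 with the highest signal, the 5 with the most candidates, the 13 body-shape collagens, and listed collagen genes outside the set. The col-97, col-144, col-145 and col-161 genes, the members with no candidate and the genes just outside the limit were named after their values were seen. No promoter table was used here, so hexamer shares are given over all sites and candidates. Assignment and merging were checked on simulated summits. Tools were Python 3.11.15, pandas 2.3.3, NumPy 2.4.6, SciPy 1.17.1, Biopython 1.88 and matplotlib 3.10.9. Alternatives changed the window, list, threshold, replicate, merging and promoter width.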

Additional observations from a re-analysis of the deposited data

How the results depend on the processing

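The count of 7 collagen genes with a site was kept within 1.5 times by several settings. These were a window from 1000 bp upstream, assignment to the nearest 5′ end, any overlap, the conservative list and unmerged peaks. The share over all genes moved in some of them. By nearest 5′ end 4.27% of collagen genes stood against 2.90% of all genes. From 1000 bp upstream it was 3.66% against 3.76%, and with any overlap 4.88% against 4.91%. The Gly-X-Y requirement could not change the count, because all 164 genes meet it. The count became 12 from 5000 bp upstream (7.32%, against 6.85% of all genes) and 0 in the narrow window around the 5′ end (against 1.93%). It became 22 at IDR 0.05 (13.4%, against 7.56%). At or above the list's median signal it was 4 (2.44%, against 2.54%), and away from small RNA genes 4 (2.44%, against 3.71%). Leaving out replicate 2 gave 3 (1.83%, against 2.94%), and leaving out replicate 1 gave 5 (3.05%, against 2.22%). The count of 22 at IDR 0.05 became, with settings chosen after seeing the data, 11 at an IDR of 0.02 (6.71% against 5.60% of all genes), 7 upstream only and 7 under 55% G and C. It was 4 without replicate 2 and 10 without replicate 1. Any candidate was left for 153 genes without replicate 2 (93.3%, against 77.6% of all genes) and for 154 without replicate 1 (93.9%, against 81.0%). The 2 sites in promoters became 0 with a promoter of 500 bp and 1 in the conservative list. The promoter share over all sites is not given here, so these counts are a description only. ACGCAG, at 0 sites within 50 bp, was at 1 within 100 bp. The causes were not tested. No paired analysis was possible because there is 1 group. The protein alternative used translated coding sequence. With 2 replicates and no read counts, a weak site that is missing cannot be told apart from one that is too shallow to call.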
